A study of Mus musculus with 36 samples.

Results

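Elastic fibres give tissues their recoil, and 10 genes of their core, their fibrillin scaffold and their assembly were followed in the mouse cochlea. The 10 were a listed set, Eln, Fbn1, Fbn2, Mfap4, Mfap5, Fbln5, Lox, Loxl1, Ltbp1 and Adamtsl2, matched by symbol to 10 of the 39017 Ensembl genes in the count table. The set was chosen with earlier results of these data known, so its counts beside those of all genes are descriptive only. All 10 also passed the filter on low counts, which left 22556 genes for testing. Messenger RNA of cochleae, the hearing organ of the inner ear, was sequenced from CBA/Sca mice aged 12 weeks. The first group had been adrenalectomized (ADX), an operation that removes the adrenal glands and with them the main source of corticosterone, and the other had undergone a sham operation that leaves the glands in place. Both groups were sampled every 4 h, at the circadian hours 4, 8, 12, 16, 20 and 24 (written CT04 to CT24), with 3 libraries for each group and time, 18 ADX and 18 sham libraries in all. The labels give no further allele or agent for either group, and they do not say whether a library came from 1 animal or from several.

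An elastic fibre consists of a core of cross-linked elastin laid onto a scaffold of microfibrils, which are strings of fibrillin molecules. Fibulins, microfibril-associated glycoproteins and ADAMTS-like proteins guide the assembly, lysyl oxidases cross-link the elastin, and latent TGF-beta binding proteins tether the inactive growth factor TGF-beta to the microfibrils. In the cochlea such matrix belongs to connective tissue, which lines the bony wall as the spiral ligament and surrounds the vessels.

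Deposited counts summed to between 20351081 and 28947793 per ADX library and between 18999408 and 28995197 per sham library. All 13 cochlear markers examined, among them the hair cell gene Myo7a and the fibrocyte gene Coch, passed the filter. Libraries also held transcripts of neighbouring tissue. The osteoblast score, the mean centred log2 CPM (counts scaled to a common library size) of 7 markers of bone-forming cells, lay between -0.70 and 0.33 in ADX and between -0.26 and 1.13 in sham libraries. Its 2 highest values, 1.13 and 0.94, were those of replicates 2 and 3 of sham CT20. The skeletal muscle score was highest in 3 ADX libraries, with 5.02 in CT20 replicate 3, 3.53 in CT12 replicate 1 and 2.87 in CT16 replicate 2. The pituitary transcript Gh exceeded 50 CPM in 5 libraries, ADX CT24 replicates 1 and 2, sham CT08 replicates 2 and 3 and sham CT16 replicate 3. Calls over the mean of the 6 times and the main differences at CT20 and CT24 are also given without such libraries.

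Promoter windows, the 250 bases upstream of a start site, were on file for 4 of the 10 genes, Fbn1, Fbln5, Ltbp1 and Adamtsl2. The windows below are shown because they belong to the gene furthest below sham in ADX, to the gene with the clearest daily rhythm and to the most abundant gene, in that order. Adamtsl2 lies on chromosome 2 (window chr2:27079129-27079378, plus strand), Fbn1 on chromosome 2 (window chr2:125506439-125506688, minus strand) and Ltbp1 on chromosome 17 (window chr17:75005279-75005528, plus strand). The sequences are from RefSeq on GRCm38.p6, are written 5′ to 3′, and capitals mark a motif match.
Adamtsl2: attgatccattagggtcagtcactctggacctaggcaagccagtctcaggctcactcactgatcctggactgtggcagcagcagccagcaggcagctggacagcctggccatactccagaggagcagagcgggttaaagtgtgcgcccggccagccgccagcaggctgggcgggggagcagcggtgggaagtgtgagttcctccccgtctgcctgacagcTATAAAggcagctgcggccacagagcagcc
Fbn1: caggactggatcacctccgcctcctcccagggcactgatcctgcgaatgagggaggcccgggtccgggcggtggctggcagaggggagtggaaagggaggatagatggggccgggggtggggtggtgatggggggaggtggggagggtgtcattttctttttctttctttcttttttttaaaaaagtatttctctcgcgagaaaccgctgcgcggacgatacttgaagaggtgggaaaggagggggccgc
Ltbp1: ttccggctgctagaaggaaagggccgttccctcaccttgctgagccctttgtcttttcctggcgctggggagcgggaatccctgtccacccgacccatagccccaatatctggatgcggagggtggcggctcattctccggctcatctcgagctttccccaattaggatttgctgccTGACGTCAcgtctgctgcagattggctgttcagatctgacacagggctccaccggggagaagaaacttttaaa
A set of 8 motifs was searched on both strands in the 6 windows of these 4 genes. The Adamtsl2 window held a TATA box (TATAAA, present in 12.37% of 32851 promoter windows of the same length) starting 30 bases before the start site. The Ltbp1 window held a cAMP response element (TGACGTCA, in 1.546% of windows) starting 73 bases before it. The same windows held no match to the glucocorticoid response element (AGAACA, any 3 bases, then TGTTCT, in 0.00913% of windows), to its half-site AGAACA (16.08%), to the E-box CACGTG (6.02%), to the D-box TTATGTAA (0.819%), to the ROR element AGGTCA (14.02%) or to the heat shock element (GAA, TTC and GAA, 2 bases apart, 0.466%). The windows of Fbn1 and Fbln5 held no match to any of the 8, which says only that these letters are not in the windows.

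Per deposited gene length, the level of the 10 genes spanned 32.4-fold. That length is not a whole number for Ltbp1 (3642.3 bases), Fbn1, Mfap4, Mfap5 and Adamtsl2. The span and the order of genes given here hold only for these lengths. Ltbp1, whose protein tethers latent TGF-beta, was the most abundant, with a mean of 27.1 CPM per kb of gene length (SD 1.87, n = 36 libraries). Lox, the lysyl oxidase that starts cross-linking of elastin and collagen, followed with 17.3 ± 3.39 CPM per kb. Loxl1, a lysyl oxidase tied to elastic fibre renewal, had 14.4 ± 1.04 CPM per kb, Fbln5, the elastin-binding scaffold fibulin, 14.2 ± 1.14, and Mfap4, an elastin- and fibrillin-binding glycoprotein, 13.0 ± 2.22. These last 3 neighbours did not separate cleanly, since Loxl1 exceeded Fbln5 in 19 of 36 libraries and Fbln5 exceeded Mfap4 in 23.

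The fibrillin Fbn1, the main building block of adult microfibrils, had 9.16 ± 1.85 CPM per kb, and Mfap5, a microfibril-associated glycoprotein, had 6.55 ± 0.93 CPM per kb. Elastin itself was among the least abundant of the 10, with 3.94 ± 0.82 CPM per kb for Eln. Below it came Adamtsl2, a secreted glycoprotein that binds fibrillin 1 and LTBP1, with 2.74 ± 0.68 CPM per kb, and Fbn2, the fibrillin prominent in development, with 0.84 ± 0.25. Ltbp1 stood above Lox, Mfap5 above Eln and Adamtsl2 above Fbn2 in all 36 libraries. The spread over libraries, as a coefficient of variation, was smallest for Ltbp1 at 6.89% and largest for Fbn2 at 29.96%. Mfap4 overlaps Mapk7 on the opposite strand, which had 29764 counts against 13868 for Mfap4 over all libraries. Whether the counting used strand is not given in the sources here, so the value of Mfap4 is uncertain.

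**Figure D1:**
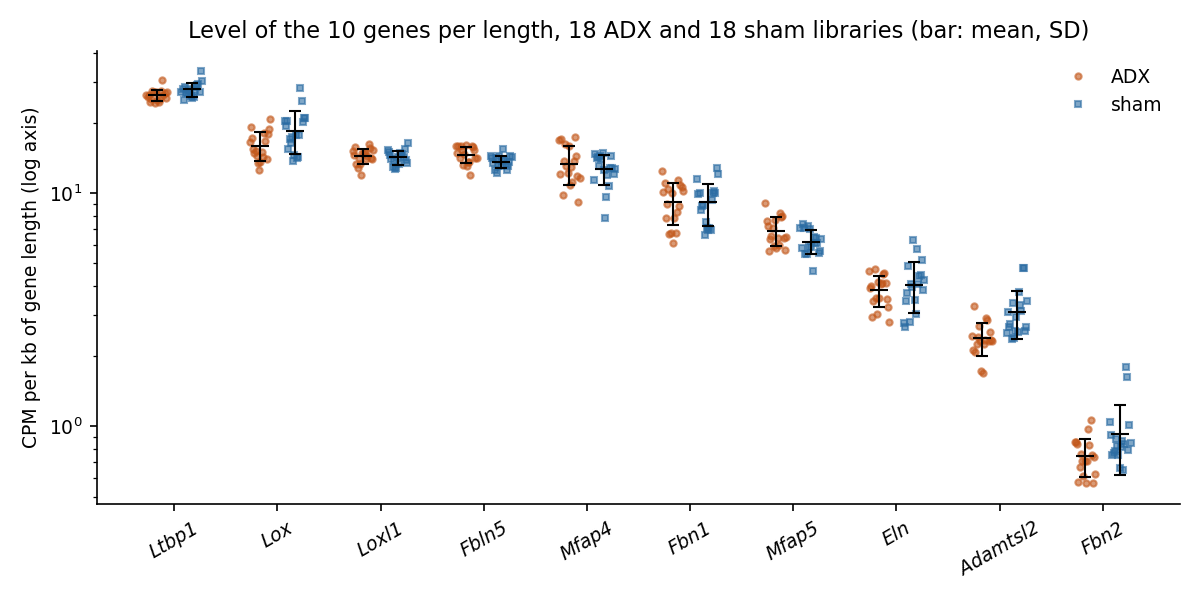
Level of each gene in CPM per kb of gene length (log axis), with 18 ADX libraries (circles) left of 18 sham libraries (squares) and the mean ± SD in black. Genes run from Ltbp1, at 27.1 CPM per kb over all libraries, to Fbn2 at 0.84, and the ADX and sham points of every gene overlap.

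The mean over the 6 times was compared between ADX and sham to ask whether the level of these transcripts, averaged over the day, differed once the adrenal glands were removed. Adamtsl2 and Lox were lower in ADX and none of the 10 was called higher. By edgeR's quasi-likelihood test, adjusted by Benjamini-Hochberg over 22556 genes, the 2 calls among 10 stand beside 0.718% of all tested genes called, and 0.372% called lower in ADX. At an unadjusted p under 0.05 there were 6 of the 10, beside 15.6% of all genes. DESeq2 called 4 of the 10, beside 2.79%, adding Fbn2 (adjusted p = 0.0336) and Ltbp1 (adjusted p = 0.0415). The median log2 fold change was -0.03 over the 10 genes and 0.0011 over all tested genes. In bulk cochlea, fewer cells of a type and less RNA per cell cannot be told apart.

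Among the fibrillins and elastin, Eln had a lowest, median and highest value of 7.27, 10.24 and 12.27 CPM in ADX, against 6.87, 10.38 and 16.199 CPM in sham. The ADX libraries lay within the sham range, and the log2 fold change of ADX over sham was -0.08 ± 0.08 (SE, adjusted p = 0.713). Fbn1 ranged from 48.6 to 98.4 CPM in ADX with a median of 75.3, against 52.6 to 102.0 CPM in sham with a median of 72.1. Its log2 fold change was 0.02 ± 0.05 (adjusted p = 0.924), the groups overlapping almost throughout. Fbn2 had a lowest, median and highest value of 5.97, 7.60 and 11.145 CPM in ADX, against 6.83, 8.73 and 18.8 CPM in sham. Its upper end was held by 2 sham libraries, and its log2 fold change of -0.28 ± 0.08 had an adjusted p of 0.0921.

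Of the microfibril and assembly glycoproteins, Mfap5 had a lowest, median and highest value of 5.69, 6.57 and 9.09 CPM in ADX, against 4.65, 6.13 and 7.38 CPM in sham. Its log2 fold change was 0.15 ± 0.05 (adjusted p = 0.146), and it was the only one of the 10 with a positive log2 fold change at all 6 times, as were 4.14% of tested genes. Fbln5 had 69.6, 86.1 and 93.9 CPM in ADX, against 71.2, 79.9 and 90.5 CPM in sham, with the groups overlapping. Its log2 fold change of 0.10 ± 0.03 had an adjusted p of 0.131, positive at 5 of 6 times. Mfap4 had a log2 fold change of 0.07 ± 0.07 (adjusted p = 0.656), with 15.97 ± 3.002 CPM in ADX and 15.17 ± 2.27 CPM in sham (SD, n = 18 each).

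Of the cross-linking enzymes, Lox had a lowest, median and highest value of 50.6, 61.8 and 83.8 CPM in ADX, against 55.7, 71.5 and 114.7 CPM in sham. ADX libraries covered the lower part of the sham range, and the 2 highest values were those of sham CT20 replicates 2 and 3. The log2 fold change was -0.20 ± 0.05 (adjusted p = 0.0396), negative at all 6 times. Loxl1 had 48.2 ± 3.70 CPM in ADX and 47.6 ± 3.298 CPM in sham (SD, n = 18 each), with overlapping ranges. Its log2 fold change was 0.02 ± 0.03 (adjusted p = 0.841), and the difference between Lox and Loxl1 was not tested.

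Of the pair linked to TGF-beta, Adamtsl2 had a lowest, median and highest value of 3.87, 5.33 and 7.52 CPM in ADX, against 5.41, 6.51 and 10.9 CPM in sham. Of the ADX libraries, 11 lay below the lowest sham library, and 6 sham libraries, of CT08, CT16, CT20 and CT24, lay above the highest ADX library. The log2 fold change was -0.36 ± 0.08 (adjusted p = 0.0344), negative at all 6 times. Ltbp1 had 88.8, 95.7 and 111.2 CPM in ADX, against 91.8, 100.5 and 121.4 CPM in sham. Its log2 fold change was small and also negative at all 6 times, at -0.08 ± 0.03 (adjusted p = 0.104). With Lox and Fbn2 this makes 4 of the 10 genes lower in ADX at all 6 times, beside 3.48% of tested genes.

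**Figure D2:**
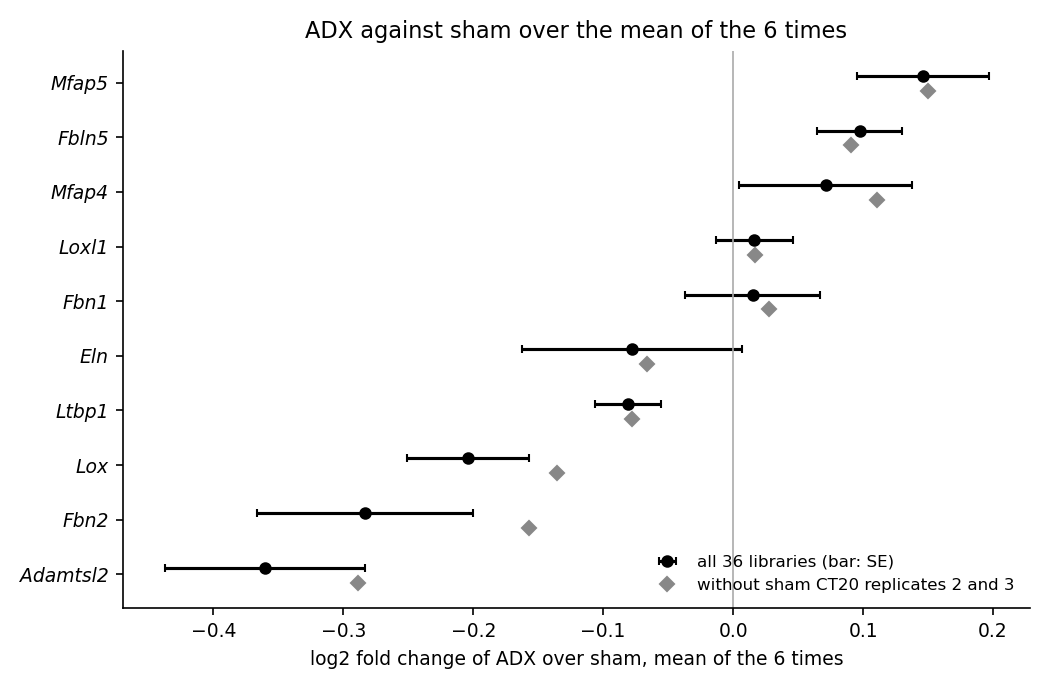
Log2 fold change of ADX over sham for the mean of the 6 times, with all 36 libraries (black circles, bars are SE) and without sham CT20 replicates 2 and 3 (grey diamonds). Adamtsl2, Fbn2 and Lox, at -0.36, -0.28 and -0.20 with all libraries, move to -0.29, -0.16 and -0.14 without these 2, and the other 7 genes shift less.

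The calls for Lox and Adamtsl2 lay close to the threshold (edgeR adjusted p = 0.0396 and 0.0344) and were lost in several fits with fewer libraries. Sham CT20 replicates 2 and 3 held the highest CPM of both genes, so leaving them out was bound to shrink the difference. Without sham CT20 replicates 2 and 3, neither was called, with a log2 fold change of -0.14 for Lox (adjusted p = 0.165) and -0.29 for Adamtsl2 (adjusted p = 0.146). Without the 5 libraries with Gh over 50 CPM the values were -0.18 (adjusted p = 0.239) and -0.35 (adjusted p = 0.145), and without the 3 muscle-high libraries both remained called. With 1 library left out at a time, Lox was called in 21 of 36 fits and Adamtsl2 in 29 of 36. The call of Adamtsl2 was lost, with an adjusted p between 0.0539 and 0.0603, without each of ADX CT12 replicate 3, ADX CT16 replicate 2, ADX CT24 replicate 1, sham CT04 replicate 2, sham CT08 replicate 3, sham CT12 replicate 3 and sham CT20 replicate 3. The call of Lox was lost without each of these libraries as well, and without ADX CT04 replicates 1 or 3, ADX CT08 replicate 3, ADX CT16 replicate 1, sham CT08 replicate 2, sham CT20 replicate 2, sham CT24 replicate 1 or sham CT24 replicate 2, with an adjusted p between 0.0506 and 0.0731. The direction stayed negative in every one of these fits for both genes.

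Markers of bone-forming cells moved with the same libraries. All 7 osteoblast markers had negative log2 fold changes of ADX over sham, with a median of -0.39. Of the 7, 3 were called lower, beside 0.372% of all tested genes, namely Dmp1 at -0.24, Ibsp at -0.39 and Ifitm5 at -0.52. The summed level of the 7 markers lay between 572 and 1043 CPM in ADX libraries and between 747 and 1695 CPM in sham libraries, and no marker was at 0 in all libraries. The osteoblast score had a median of -0.16 in ADX and 0.12 in sham libraries. For a gene that follows the score, a fit with the score as covariate therefore removes part of the difference between the groups. With the osteoblast score as a covariate, the log2 fold change was -0.11 for Lox (adjusted p = 0.388), -0.23 for Adamtsl2 (adjusted p = 0.220) and 0.01 for Fbn2 (adjusted p = 0.973).

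The relation of each of the 10 genes to 9 marker scores was examined over the 36 libraries as deviations from the mean of the library's group, 90 relations in all, with Benjamini-Hochberg adjustment of permutation p-values. By Pearson's r only Fbn2 with the osteoblast score passed, with r = 0.82 (permutation p = 8e-05, adjusted 0.0072) and Spearman's rho = 0.72 (permutation p = 0.00014, adjusted 0.0126). Without the 2 libraries whose deviation in score was farthest from the median, r was 0.72. Sham CT20 replicates 2 and 3, with the highest osteoblast scores, were kept in that value. Eln with the vascular smooth muscle score passed by Spearman's rho alone, with r = 0.73 (permutation p = 0.00135, adjusted 0.0608) and rho = 0.70 (permutation p = 0.00067, adjusted 0.0302), and r = 0.67 without the 2 farthest libraries. Among the 45 pairs of the 10 genes themselves, 0 passed, 33 had a positive r, and the smallest p was that of Fbn1 with Mfap4 by Pearson's r (r = 0.52, permutation p = 0.00504, adjusted 0.102) and that of Mfap4 with Ltbp1 by Spearman's rho (permutation p = 0.00255, adjusted 0.0707). The part of bone or vessel tissue in the values of Fbn2, Lox, Adamtsl2 or Eln was not tested further.

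**Figure D3:**
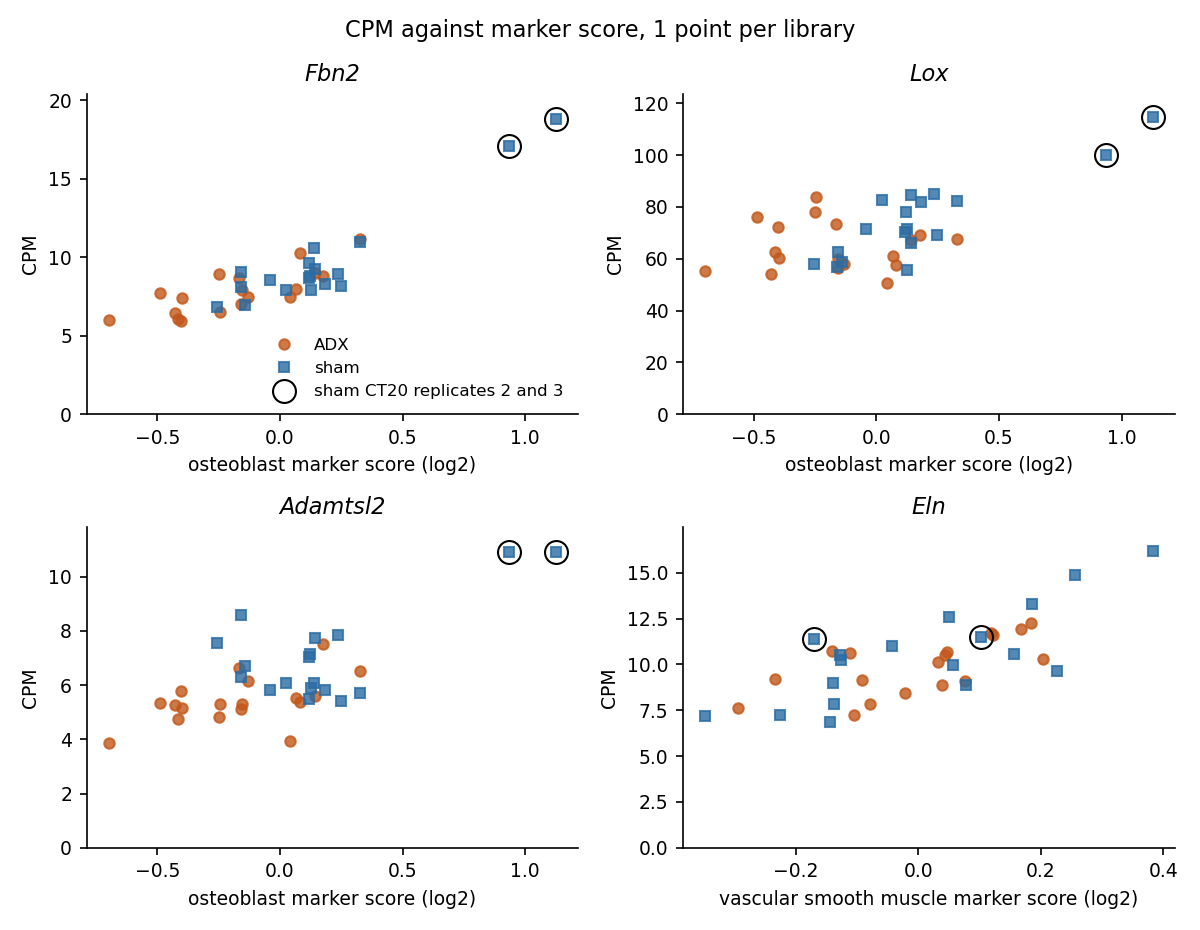
CPM of Fbn2, Lox and Adamtsl2 against the osteoblast score and of Eln against the vascular smooth muscle score (both log2), 1 point per library, ADX as circles and sham as squares. The 2 ringed sham CT20 libraries hold the highest CPM of Fbn2, Lox and Adamtsl2 and the highest osteoblast scores, 1.13 and 0.94, but lie mid-range for Eln.

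At single times, the 10 genes gave 0 calls at any of the 6 times by the same edgeR test, where all genes gave 0% at CT04, CT08, CT12, CT16 and CT24 and 0.00443% at CT20. At an unadjusted p under 0.05 the number of the 10 genes was 1 at CT04, 1 at CT08, 0 at CT12, 1 at CT16, 4 at CT20 and 3 at CT24, against 9.3, 4.28, 5.41, 7.95, 7.49 and 5.74% of all genes. DESeq2 called 0 of the 10 at CT04, CT08, CT12, CT16 and CT24, beside 0.35, 0, 0.0399, 0.0887 and 0% of all genes. At CT20 it called 1, Lox with an adjusted p of 0.00662, beside 0.776%.

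CT20 held the largest differences. Lox had 73.3, 67.5 and 56.4 CPM in the ADX libraries, against 71.6, 114.7 and 100.1 CPM in the sham libraries. Adamtsl2 had 6.64, 6.52 and 5.31 CPM in ADX, against 7.15, 10.9 and 10.9 CPM in sham. Fbn2 had 8.68, 11.145 and 7.89 CPM in ADX, against 8.81, 18.8 and 17.1 CPM in sham. In all 3 genes sham replicates 2 and 3 were high while sham replicate 1 was close to the ADX libraries, and only for Adamtsl2 did the groups not overlap. The log2 fold changes were -0.54 ± 0.11 for Lox (adjusted p = 0.0744), -0.65 ± 0.18 for Adamtsl2 (adjusted p = 0.156) and -0.69 ± 0.20 for Fbn2 (adjusted p = 0.161).

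These values moved with the sham libraries kept. Without sham CT20 replicate 1 all 3 genes were called, with log2 fold changes of -0.71, -0.82 and -0.95 and adjusted p of 4.83e-04, 0.0320 and 0.00575 for Lox, Adamtsl2 and Fbn2. Without replicates 2 and 3 the values were -0.12, -0.21 and 0.07, with the remaining sham library assumed to vary like the other groups. ADX CT20 replicate 3 has the highest skeletal muscle score, and without the 3 muscle-high libraries the values were -0.44 for Lox (adjusted p = 0.196), -0.55 for Adamtsl2 (adjusted p = 0.397) and -0.58 for Fbn2 (adjusted p = 0.464). Without ADX CT08 replicate 1 or 3, libraries of another time, Lox was called with an adjusted p of 0.0409 or 0.0444. Mfap5 went the other way at CT20, with 8.23, 7.96 and 7.98 CPM in ADX, against 6.12, 6.48 and 6.13 CPM in sham. Every ADX library was above every sham library, and the log2 fold change of 0.37 ± 0.12 had an adjusted p of 0.295.

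Eln changed side between times. At CT04 it had 12.0, 10.1 and 10.3 CPM in ADX, against 7.16, 6.87 and 8.87 CPM in sham. At CT24 it had 9.11, 8.42 and 7.27 CPM in ADX, against 13.3, 9.96 and 10.99 CPM in sham. Every ADX library was thus above every sham library at CT04 and below every one at CT24, with log2 fold changes of 0.50 ± 0.21 (adjusted p = 0.452) and -0.47 ± 0.21 (adjusted p = 0.845). Replicates 1 and 2 of ADX CT24 had Gh over 50 CPM, and without the 5 Gh-high libraries the CT24 value of Eln was -0.65 (adjusted p = 0.9998), resting on 1 ADX library that is assumed to vary like the other groups. The vascular smooth muscle score, the mean centred log2 CPM of 7 markers, overlapped between the groups at both times. Its middle value was higher in ADX at CT04 and lower at CT24. At CT04 it was 0.17, 0.03 and 0.20 in ADX against -0.35, -0.14 and 0.08 in sham. At CT24 it was 0.08, -0.02 and -0.10 in ADX against 0.19, 0.06 and -0.04 in sham. The summed CPM of these markers lay between 163 and 208 in ADX and between 154 and 229 in sham libraries, with none at 0 in all of them. The part of smooth muscle in the difference was not tested.

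At CT24 Fbn2, Mfap4 and Adamtsl2 were also lower in every ADX library than in every sham library, which with Eln makes 4 of 10, beside 6.01% of all genes, and 0 of 10 were higher in every ADX library, beside 6.03%. At CT16 this held for 3 of 10, Fbln5, Ltbp1 and Adamtsl2, beside 6.49%, with 0 higher beside 7.1%. At CT04 it held for 1 of 10, Lox, beside 8.46%, and at CT08 for 2 of 10, Fbn2 and Lox, beside 3.93%, with 0 higher beside 4.45%. At CT20 Adamtsl2 was the 1 of 10, beside 4.13%. Eln and Fbln5 at CT04 and Mfap5 at CT20 were the cases with every ADX library above every sham library, 2 of 10 beside 8.07% and 1 of 10 beside 5.12%. Eln and Fbln5 thus separated in opposite directions at 2 of the times, 2 of 10 beside 5.27%. At CT12 no gene of the 10 separated the groups, beside 5.34% of genes lower and 5.09% higher.

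A model with a 24 h cosine and sine per group asked which transcripts rose and fell over the day. Fbn1 and Lox were called rhythmic in ADX, 2 of 10 beside 9.4% of all tested genes, and in sham, where Fbn2 and Adamtsl2 were called as well, 4 of 10 beside 16.08%. When the rhythm was taken as shared by both groups, Fbn1, Lox and Loxl1 were called, 3 of 10 beside 32.5%.

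Fbn1 followed the day closely. In ADX it had 98.4, 80.3 and 88.0 CPM at CT04, 61.9, 71.2 and 82.7 at CT08, 52.9, 53.5 and 79.4 at CT12, 48.6, 61.8 and 53.5 at CT16, 66.1, 89.98 and 69.7 at CT20, and 86.0, 84.2 and 81.2 at CT24. In sham it had 91.0, 78.2 and 79.6 CPM at CT04, 66.9, 69.8 and 70.3 at CT08, 52.6, 59.5 and 56.3 at CT12, 55.0, 56.1 and 54.9 at CT16, 73.8, 79.1 and 81.2 at CT20, and 79.1, 102.0 and 95.6 at CT24. Both groups were high at CT24 and CT04 and low at CT12 and CT16, and within each group every library of CT12 and CT16 lay below every library of CT24. The fitted peak-to-trough difference, on the log2 scale, was 0.66 ± 0.10 in ADX with a peak at 2.23 h (adjusted p = 3.4e-04) and 0.77 ± 0.10 in sham with a peak at 1.17 h (adjusted p = 1.2e-05).

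Lox had 67.2, 78.0 and 69.4 CPM at CT04, 62.5, 60.1 and 61.1 at CT08, 58.1, 54.3 and 50.6 at CT12, 55.1, 60.4 and 57.5 at CT16, 73.3, 67.5 and 56.4 at CT20, and 72.2, 76.3 and 83.8 at CT24 in ADX. In sham it had 82.4, 78.1 and 82.7 CPM at CT04, 62.6, 69.2 and 66.1 at CT08, 70.3, 55.7 and 58.6 at CT12, 71.4, 57.0 and 57.8 at CT16, 71.6, 114.7 and 100.1 at CT20, and 81.9, 84.5 and 85.01 at CT24. In both groups CT24 and CT04 were high and CT08 to CT16 low, while CT20 lay between them in ADX and held the 2 highest libraries in sham. The peak-to-trough difference was 0.49 ± 0.10 in ADX with a peak at 0.93 h (adjusted p = 0.00484) and 0.62 ± 0.10 in sham with a peak at 23.4 h (adjusted p = 2.4e-04). Without sham CT20 replicates 2 and 3 the sham value was 0.50 and remained called (adjusted p = 3.23e-05).

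Loxl1 varied little over the day, with group means within a narrow band and a shared peak-to-trough difference of 0.17 peaking at 22.6 h (adjusted p = 0.0102). In ADX alone its value was 0.18 ± 0.06 (adjusted p = 0.114) and in sham alone 0.16 ± 0.06 (adjusted p = 0.160). Without the 5 Gh-high libraries the ADX value was 0.25 and was called (adjusted p = 0.0445). The calls of Fbn1 and Lox in ADX, in sham and shared, and the shared call of Loxl1, held whichever of the 36 libraries was left out.

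**Figure D4:**
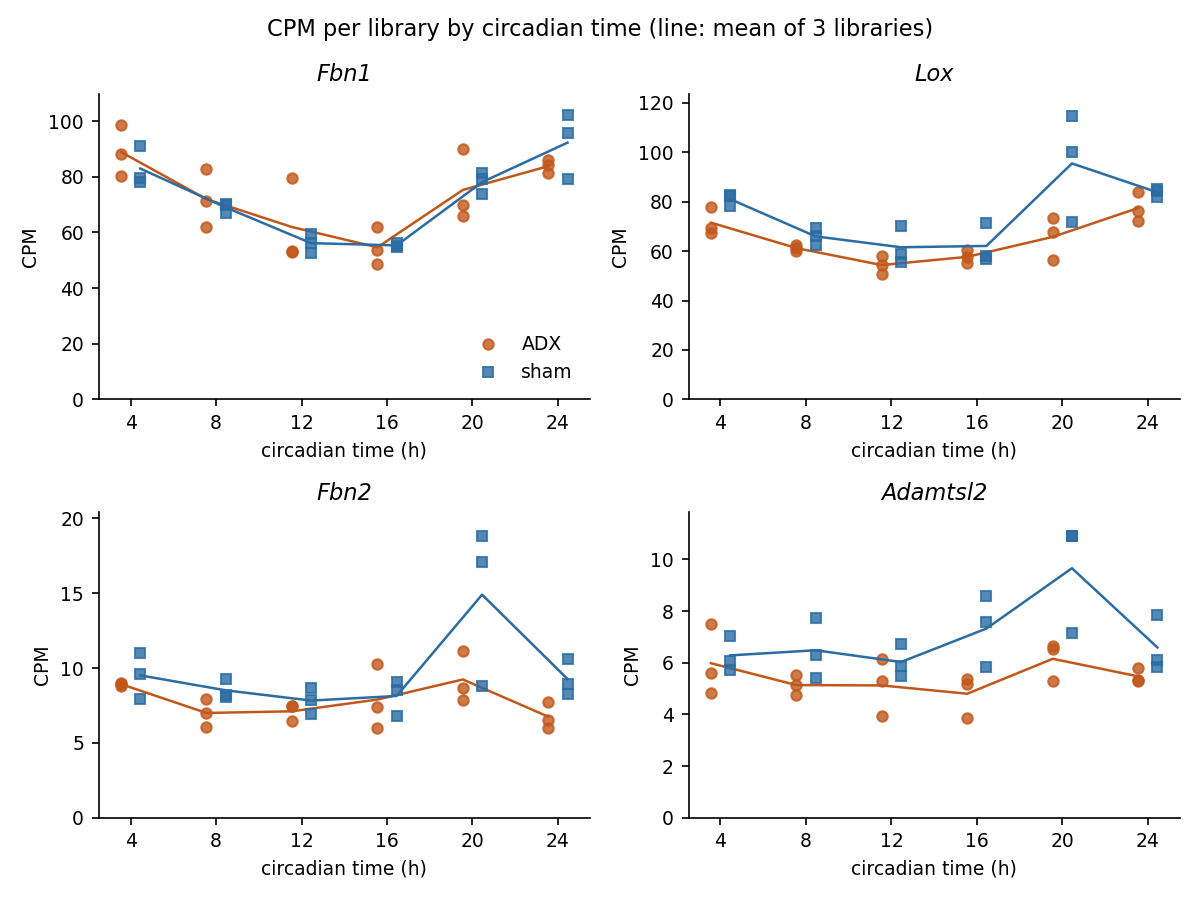
CPM of Fbn1, Lox, Fbn2 and Adamtsl2 by circadian time, ADX as circles drawn left of sham as squares, 3 libraries per group and time, lines through the means. Fbn1 and Lox dip between CT12 and CT16 in both groups, while Fbn2 and Adamtsl2 stand out at CT20 only through 2 sham libraries, at 18.8 and 17.1 CPM and at 10.9 CPM.

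The sham rhythm calls of Fbn2 and Adamtsl2 lay at the threshold. Sham CT20 replicates 2 and 3 held the highest CPM of both genes, so leaving them out was bound to shrink the sham values. Fbn2 had a peak-to-trough difference of 0.21 ± 0.21 in ADX (adjusted p = 0.771) and 0.66 ± 0.20 in sham with a peak at 21.6 h (adjusted p = 0.0498). Adamtsl2 had 0.26 ± 0.17 in ADX (adjusted p = 0.526) and 0.52 ± 0.16 in sham with a peak at 19.6 h (adjusted p = 0.0498). Without sham CT20 replicates 2 and 3 the sham values were 0.28 for Fbn2 (adjusted p = 0.358) and 0.22 for Adamtsl2 (adjusted p = 0.589). With the osteoblast score as a covariate they were 0.17 (adjusted p = 0.484) and 0.37 (adjusted p = 0.127). Each was called in 11 of 36 fits with a library left out. Libraries of other times also moved these calls. Without ADX CT04 replicate 1 the edgeR adjusted p was 0.0566 for Fbn2 and 0.0605 for Adamtsl2. Without sham CT12 replicate 1 it was 0.0622 and 0.0742.

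The test of a difference in rhythm between ADX and sham called 0 of the 10 genes and 0% of all genes. Its lowest unadjusted p among the 10 was 0.10, for Adamtsl2, so that 0 passed an unadjusted p of 0.05, which 3.57% of all genes did, and DESeq2 called 0 of the 10 beside 0.00443%. The fitted peak-to-trough difference was smaller in ADX for 7 of the 10, with a median of 0.18 in ADX and 0.36 in sham over the 10 genes, beside 0.18 and 0.22 over all tested genes. This depended in part on sham CT20 replicates 2 and 3. Without them, ADX minus sham went from -0.45 to -0.07 for Fbn2, from -0.12 to 0.0016 for Lox and from -0.26 to 0.0507 for Adamtsl2. For Fbn1 it went from -0.11 to -0.10. Eln, Mfap4, Mfap5, Fbln5 and Ltbp1 had no call in either group with all libraries. Eln had a peak-to-trough difference of 0.09 ± 0.18 in ADX and 0.40 ± 0.19 in sham, and Mfap4 one of 0.10 ± 0.16 in ADX and 0.32 ± 0.16 in sham. With the osteoblast score as a covariate, the value of Mfap4 in sham was 0.497 and was called (adjusted p = 0.0212), as was its shared value of 0.27 (adjusted p = 0.0469). For Ltbp1 it was 0.08 ± 0.06 in ADX and 0.14 ± 0.05 in sham. Mfap5, with 0.17 ± 0.13 in ADX and 0.13 ± 0.13 in sham, and Fbln5, with 0.16 ± 0.07 in ADX and 0.04 ± 0.07 in sham, had the larger value in ADX. Tested for any change over the 6 times rather than for a cosine, Fbn1, Lox and Mfap5 were called in ADX, 3 of 10 beside 9.68%, and Fbn1, Fbn2, Lox and Adamtsl2 in sham, 4 of 10 beside 16.19%. The same kind of test of the interaction of group and time called 0 of 10 and 0% of all genes.

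Over all 36 libraries, the non-member genes whose log2 CPM followed 3 of the 10 most closely were listed by Pearson r, as a description that includes the time of day and the tissue content shared by the libraries. For Fbn1 they were 3 collagen genes, the basement membrane chains Col4a2 (r = 0.91, rho = 0.92) and Col4a1 (r = 0.91, rho = 0.91) and the microfibrillar collagen Col6a1 (r = 0.90, rho = 0.88). Their shared peaks lay at 1.74, 0.41 and 2.36 h, beside 1.66 h for Fbn1. For Eln they were the smooth muscle myosin Myh11 (r = 0.71, rho = 0.56), the smooth muscle actin-binding gene Tagln (r = 0.67, rho = 0.60) and Zfp46 (r = 0.65, rho = 0.71). For Adamtsl2 they were Fam78b (r = 0.75, rho = 0.63), the collagen lysyl hydroxylase Plod2 (r = 0.75, rho = 0.71) and the cyclin Ccnd2 (r = 0.74, rho = 0.65). Plod2 was itself called lower in ADX, with a log2 fold change of -0.19 (adjusted p = 0.0372). It was picked by its r with Adamtsl2 over ADX and sham libraries together, so this call is not separate from that of Adamtsl2.

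The wider matrix pathway gives the setting of the 10 genes. Over the mean of the 6 times, 0.718% of all tested genes were called and 0.372% were called lower in ADX. Among 23 other elastic fibre and microfibril genes, 1 was called higher in ADX, Ltbp2 with a log2 fold change of 0.22 (adjusted p = 0.0412), and 1 lower, the lysyl oxidase Loxl2 at -0.41 (adjusted p = 0.0429). Neither count held without the 3 muscle-high, the 5 Gh-high or the 2 osteoblast-high libraries, each of which left 0 calls. The shared rhythm called 12 of the 23 beside 32.5% of all genes, led by Loxl4, a lysyl oxidase, with a peak-to-trough difference of 0.95 at 2.09 h, then Adamtsl4 with 0.48 at 13.7 h, Loxl3 with 0.25 at 13.5 h and Adamtsl5 with 0.32 at 16.4 h. Of the lysyl oxidases, the fitted shared peaks of Loxl1, Lox, Loxl2 and Loxl4 lay at 22.6, 0.07, 1.86 and 2.09 h, closer together than the 4 h between samples, and that of Loxl3 at 13.5 h. Differences in peak hour were not tested. In ADX 5 of the 23 were called beside 9.4%, led by Loxl4, Mfap2, Adamtsl5 and Loxl3, and in sham 9 beside 16.08%, led by Loxl4, Adamtsl4, Loxl2 and the elastin-binding glycoprotein Emilin1.

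Among 15 tested elastin-degrading proteases and protease inhibitors, 0 were called between ADX and sham, beside 0.718% of all genes called. The median log2 fold change of the 15 was -0.0048. A shared rhythm was called for 6 of the 15, beside 32.5% of all genes, a rhythm in ADX for 2, beside 9.4%, and a rhythm in sham for 5, beside 16.08%. The inhibitor Timp3 peaked at 13.7 h with a peak-to-trough difference of 0.49, and the membrane protease Mmp14 at 1.39 h with 0.42, beside 1.66 h for Fbn1. Next in order of p were the bone-resorbing protease Ctsk, with 0.62 at 20.6 h, and the inhibitor Timp1, with 0.36 at 20.06 h. Of 18 tested TGF-beta pathway genes, 0 were called between ADX and sham, with a median of -0.0020. A shared rhythm was called for 6 of these 18, a rhythm in ADX for 2 and a rhythm in sham for 3, shares near those over all genes (32.5, 9.4 and 16.08%). The target gene Ccn2 peaked at 13.3 h with a peak-to-trough difference of 0.54, near the trough of Fbn1 and Lox. The repressor Skil peaked at 18.8 h with 0.21 and the integrin subunit Itgav at 19.98 h with 0.13.

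**Figure D5:**
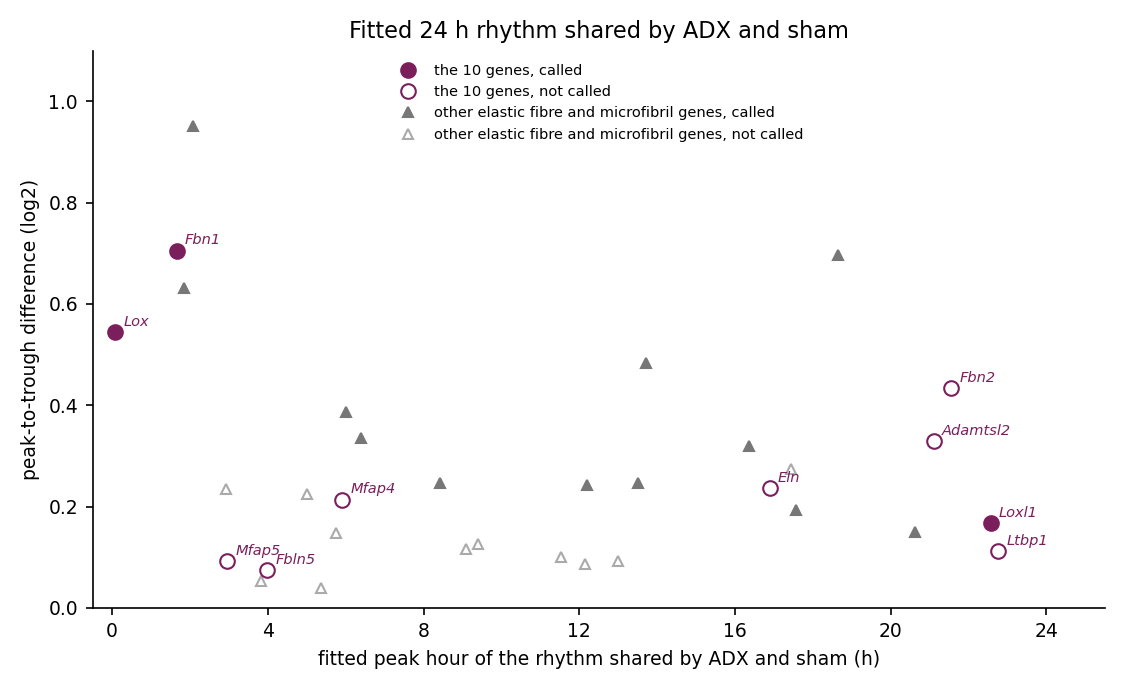
Fitted peak hour and peak-to-trough difference (log2) of the rhythm shared by ADX and sham for the 10 genes (circles) and 23 other elastic fibre and microfibril genes (triangles), filled where called. Fbn1 and Lox, at 0.71 and 0.54, peak at 1.66 and 0.07 h, Loxl1 peaks at 22.6 h with 0.17, and the called triangles are spread over the 24 h.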

How the data were processed

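Cochlear messenger RNA was made into strand-marking libraries and sequenced as single reads, per the labels' protocols. The deposited file gives raw counts for each Ensembl gene, whole numbers that the authors had not normalized, and a gene length. STAR 2.4.0i and mouse build mm10 are named in the submitters' processing notes, while the counting program, its annotation and its use of strand are not given in the labels or the file used here. For 30 of 36 libraries the hour in the column name was 1 h before the labelled hour, and the labelled hours were used. Further columns of samples numbered 0. Symbols came from GENCODE M21, which matched 96.4% of IDs.

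Tests used the quasi-likelihood method of edgeR 4.0.16 under R 4.3.3, with TMM scaling and the filterByExpr filter, on 22556 genes, all 36 libraries and 12 group means with 24 residual degrees of freedom. Rhythms were tested as a cosine and sine of 24 h per group. Adjustment was by Benjamini-Hochberg over all tested genes, and called means an adjusted p under 0.05. CPM use TMM library sizes, and per-length levels use the deposited gene length. The scripts were tested on simulated data. Alternatives were DESeq2 1.42.0, its size factors, no filter, the replicate number as a block, a test of any time difference and each library left out. Removal of libraries with high muscle, Gh or osteoblast values, the osteoblast covariate and the hours of the column names were chosen after seeing the data.

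The 10 genes and all gene lists were chosen with earlier results of these data known. The rule for named genes took all 10 genes, up to 4 called genes of each other list by smallest p, and the 3 genes most like Eln, Fbn1 and Adamtsl2 with a mean of at least 1 CPM. A gene that this rule would name is not reported here. Correlation p-values came from 100000 permutations. The libraries are separate samples per the labels, with nothing on separate animals, so a p-value reflects only how these libraries vary, which may be technical. Libraries of 1 group and time differed beyond counting noise, with a chi-square of 5.49 to 22.7 for each degree of freedom.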

Additional observations from a re-analysis of the deposited data

Results flagged for a closer look

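Eln had opposite differences at 2 of the times, and the log2 fold change of ADX over sham at CT24 minus that at CT04 was -0.96. Every ADX library lay above every sham library at CT04 and below every one at CT24. This difference between the 2 times was not tested by itself. Over all 6 times the interaction of group and time in edgeR had an unadjusted p of 0.0348 and an adjusted p of 0.969.

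Fbln5 showed the same kind of change of side, smaller. It had 92.6, 86.5 and 92.9 CPM in ADX at CT04, against 83.8, 82.5 and 78.7 CPM in sham. At CT16 it had 75.98, 79.7 and 79.3 CPM in ADX, against 80.03, 90.5 and 80.9 CPM in sham. The log2 fold change at CT16 minus that at CT04 was -0.25 and was not tested by itself, and the interaction over all times had an unadjusted p of 0.116 and an adjusted p of 0.974. Such a change of side at any pair of times occurred in 5.27% of all tested genes.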

How the results depend on the processing

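The differences called over the mean of the 6 times, those of Lox and Adamtsl2, kept their negative sign under every alternative run, while the counts of calls moved. Over the mean of the 6 times, 2 of the 10 genes were called, against 4 with DESeq2 and 0 without the 5 Gh-high libraries, without sham CT20 replicates 2 and 3, or with the osteoblast covariate, and between 0 and 3 with a library left out. At CT20 DESeq2 called 1, and fits with a library left out between 0 and 3. In sham, 4 rhythms were called, against 2 without the low-count filter, 2 without the 3 muscle-high, 2 without the 5 Gh-high and 2 without the 2 osteoblast-high libraries, and between 2 and 4 with a library left out. Shared rhythms numbered 3, against 5 with the hours of the column names, which added Fbn2 and Adamtsl2, 4 with DESeq2 or without the 5 Gh-high libraries, which added Fbn2, 4 without the 3 muscle-high libraries, which added Adamtsl2, 4 with the osteoblast covariate, which added Mfap4, and between 3 and 6 with a library left out. The cause of these moves was not tested.

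ADX and sham samples of the same time and replicate number showed little shared deviation over genes (r between -0.20 and 0.16, over 0.1 in 3 of 18 pairs). Sharing across times was not examined, and the labels do not say what a replicate number shares, so pairing by number stays undecided. With the number as a replicate block, 2 genes were called over the mean and 2 rhythms in sham, where Fbn2 had an adjusted p of 0.0589 and Adamtsl2 of 0.0507.

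Values that changed sign had no edgeR call with all 36 libraries. With the osteoblast covariate, Fbn2 had log2 fold changes of 0.00996 over the mean and 0.0136 at CT24 and a peak-to-trough difference of ADX minus sham of 0.0594, and Mfap5 one of -0.0682. Without sham CT20 replicates 2 and 3, Fbn2 had a log2 fold change of 0.0714 at CT20, and the ADX minus sham difference was 0.0016 for Lox, 0.0507 for Adamtsl2 and -0.0073 for Mfap5. With a library left out, the log2 fold change of Fbn1 over the mean lay between -0.0221 and 0.0340, and the peak-to-trough difference of ADX minus sham between -0.17 and 0.0045 for Fbn1, -0.0181 and 0.0569 for Loxl1, and -0.0078 and 0.13 for Mfap5. Adamtsl2 had between 88 and 295 counts per library, and counting error bears on it and on Mfap5, Fbn2 and Eln more than on Ltbp1, with between 1780 and 3389.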
